A study of Homo sapiens with 12 samples.

Results

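The cytoplasmic mRNA expression of 44 genes for mRNA deadenylation, decapping, 5′ decay and nonsense-mediated decay (NMD) was compared between U2OS cells depleted of DBP5, GLE1 or IPPK and control cells. The genes were taken as a list of known factors, and a probe was assigned to a gene where its transcript accession maps to that gene in RefSeq. In this way 43 of the 44 genes had at least 1 probe, 63 probes in all, out of 27522 gene names on the array. A probe without a match kept its transcript identifier as its name. These names, and the shares of all genes given below, therefore also count transcripts that were not matched to a gene. No probe was assigned to CNOT6, so it has no value here. The list holds 11 genes of the CCR4-NOT complex (10 measured), 2 TOB adaptors, 3 genes of PAN and PARN, 9 of decapping and 5′ decay, 7 of the LSM ring, 9 of NMD and 3 of the ZFP36 family.

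U2OS, a human osteosarcoma cell line, received 20 nM of siRNA, either a control or one targeting DBP5, GLE1 or IPPK, and was cultured for 48 h. DBP5, named DDX19B on the array, is the DEAD-box helicase that releases mRNA at the cytoplasmic side of the nuclear pore, GLE1 stimulates it, and IPPK makes inositol hexakisphosphate, the cofactor of GLE1. Cytoplasmic RNA was taken from cells lysed with NP40 detergent and measured on 12 one-colour arrays, with 3 arrays per siRNA, and the methods describe 3 independent array experiments. Arrays with the same replicate number, 1 of each siRNA, shared a slide, and there were 3 slides. All groups were of the same parental line, which is a transformed cell line, and each group was defined only by the siRNA.

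The poly(A) tail of a cytoplasmic mRNA is shortened by the PAN2-PAN3 and CCR4-NOT deadenylases. The shortened tail is bound by the LSM1-7 ring with PATL1, the cap is removed by DCP2 with its cofactors, and the body is degraded from the 5′ end by XRN1. NMD joins this route when UPF and SMG proteins mark an mRNA with a premature stop codon, and ZFP36 proteins join it by bringing CCR4-NOT to AU-rich elements in mRNAs for cytokines and growth regulators.

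The share of probes well above background ran from 74.8% to 77.4% over the control arrays and from 70.9% to 77.7% over the knock-down arrays, and was lowest (70.9% to 73.8%) with IPPK siRNA. Each siRNA lowered its target: DDX19B was 0.0643 ± 0.00121 of control (mean ± SD, n = 3 arrays) in DBP5-depleted cells, GLE1 was 0.102 ± 0.0274 in GLE1-depleted cells and IPPK was 0.187 ± 0.00815 in IPPK-depleted cells. DDX19B also read 0.49 ± 0.0237 in GLE1-depleted cells, and IPPK 0.42 ± 0.0142 in DBP5-depleted cells. Of 7 mesenchymal and bone markers, 7 were well above background on all control arrays, as were 3 of 6 genes of other cell types, EPCAM, PTPRC and CD3E. Some of these markers moved with the knock-downs: of the mesenchymal markers 1 was lower and 2 higher with DBP5 siRNA, 1 and 1 with GLE1 siRNA and 2 and 1 with IPPK siRNA. Of the other cell types these were 1 and 2, 0 and 2, and 2 and 1. Such shares are common here. Of all genes tested, 27.5% were lower and 26.7% higher with DBP5 siRNA, 31.5% and 30.6% with GLE1 siRNA and 28% and 27.3% with IPPK siRNA. CDH1, an epithelial cadherin, was well above background on 0 control arrays and 8 of the 12 arrays and was called higher in all 3 knock-downs. CDH2 was at 2.58 ± 0.299 of control in GLE1-depleted cells, and COL1A1 at 0.252 ± 0.02 and the nuclear RNA MALAT1 at 0.474 ± 0.144 in IPPK-depleted cells (limma adjusted p = 2.6e-06, 1.8e-08 and 0.0035). Their part in the results was not tested. All 43 measured decay factors were well above background on all 12 arrays, and 0 spots were saturated.

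In the following, a level is the log2 intensity of the brightest probe of a gene after loess normalization between arrays, and a fold is 2 to the power of the difference between the mean log2 intensity of the knock-down and that of control, with the SD over the 3 arrays of that knock-down. A gene was called higher or lower where limma gave an adjusted p under 0.05 over all 20821 genes tested. Levels of different genes are not compared, because each probe has its own brightness. The normalization brings all arrays to a common level. Higher, lower and each fold are thus relative to the other RNAs on the arrays, and a loss shared by most mRNAs would not show. The 3 comparisons share the control arrays.

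After DBP5 knock-down, 14 of the 43 factors were lower and 14 higher, while 15 did not pass the test. This was near the background, as 27.5% of all genes tested were lower and 26.7% higher. GLE1 knock-down lowered 22 of the 43 (51.2%) and raised 15 (34.9%), against 31.5% and 30.6% of all genes. With IPPK siRNA, 13 were lower and 13 higher, against 28% and 27.3% of all genes. The median log2 difference over the 43 factors was -0.04 for DBP5, -0.20 for GLE1 and 0.01 for IPPK. Over all genes it was -0.02, 0.01 and -0.03, values that the normalization sets near 0.

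Among changes of at least 1.5-fold that passed the test, 5 factors were lower and 6 higher in DBP5-depleted cells, against 12.1% and 12.6% of all genes. GLE1 knock-down lowered 11 and raised 6 by this amount, against 17.7% and 16% of all genes. For IPPK knock-down the counts were 3 and 6, against 12.6% and 13.2%. In all, 23 of the 43 factors were called with at least 1.5-fold in at least 1 knock-down, against 49.6% of all genes. Both EDC3 and LSM4 passed the test in none, as did 21.3% of all genes, though both passed in some of the alternative fits. CNOT3 and SMG1 were called in opposite directions in different knock-downs, as were 14% of all genes and as described below.

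**Figure D1:**
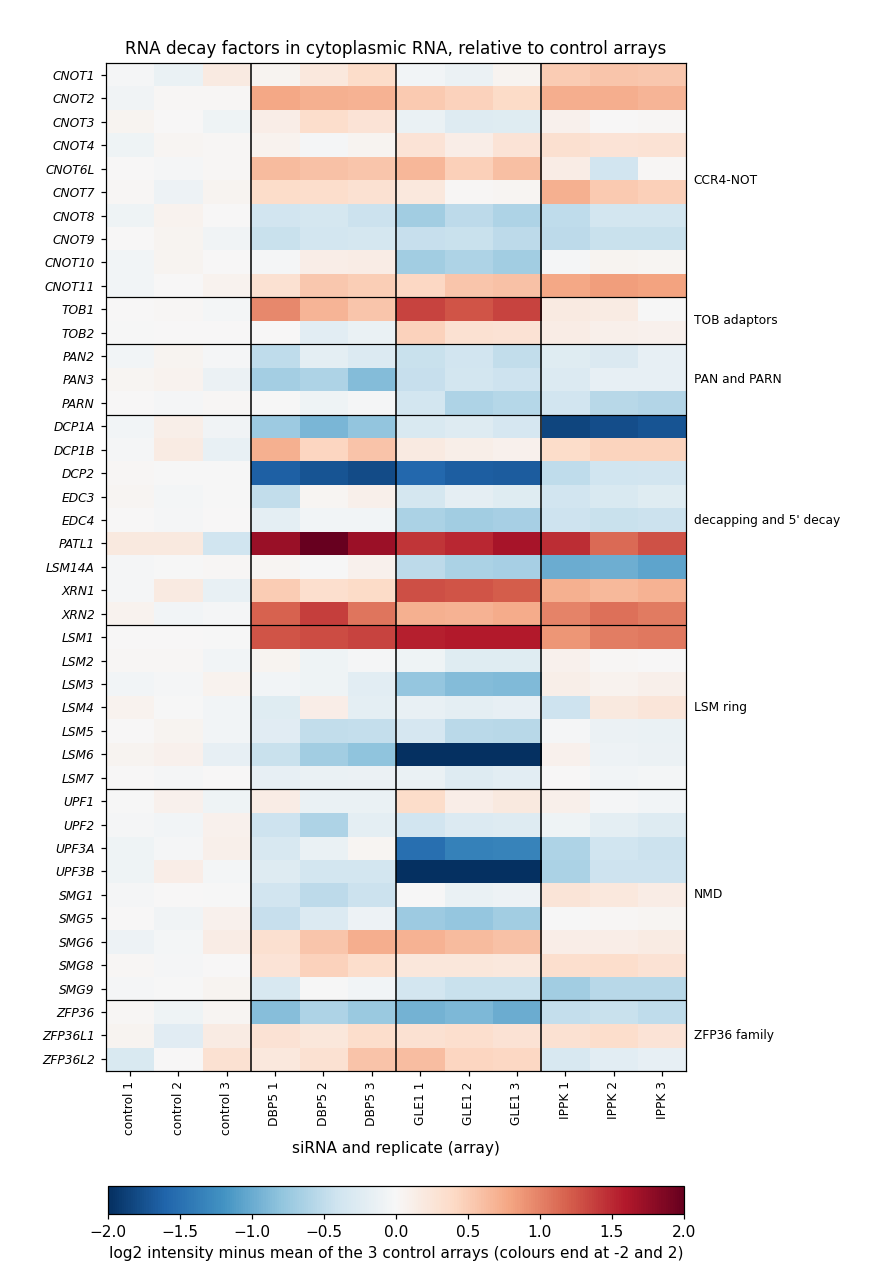
Log2 intensity of the 43 decay factors (rows, grouped by role) on each of the 12 arrays (columns, 3 per siRNA) minus the mean of the 3 control arrays; red is higher and blue lower, and colours end at -2 and 2, so that LSM6 (-2.18) and UPF3B (-2.98) in GLE1-depleted cells lie beyond the scale. The darkest rows are DCP1A in IPPK-depleted cells, DCP2 after DBP5 and GLE1 knock-down, LSM6, UPF3A and UPF3B in GLE1-depleted cells, and PATL1 and LSM1, which are red in all 3 knock-downs.

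CCR4-NOT subunits moved both ways. Of 10 measured, 2 were lower and 5 higher in DBP5-depleted cells, 4 lower and 4 higher in GLE1-depleted cells, and 2 lower and 5 higher in IPPK-depleted cells, against 27.5% lower and 26.7% higher, 31.5% and 30.6%, and 28% and 27.3% of all genes. The CCR4-NOT members had median log2 differences of 0.23, 0.02 and 0.17. CNOT2, a subunit of the NOT module, had levels of 12.01, 12.11 and 12.10 on the control arrays, 12.85, 12.79 and 12.77 with DBP5 siRNA, 12.60, 12.54 and 12.46 with GLE1 siRNA and 12.81, 12.81 and 12.76 with IPPK siRNA. All 9 knock-down arrays lay above the control arrays, with folds of 1.66 ± 0.0508, 1.37 ± 0.0696 and 1.65 ± 0.0383 (limma adjusted p = 1.1e-06, 2.4e-05 and 1.1e-06). CNOT11, which with CNOT10 binds the N-terminal end of the scaffold CNOT1, was at 11.15, 11.21 and 11.28 on the control arrays, 11.52, 11.75 and 11.70 with DBP5 siRNA, 11.62, 11.76 and 11.79 with GLE1 siRNA and 11.99, 12.05 and 12.02 with IPPK siRNA. It also lay above control on every knock-down array, and most in IPPK-depleted cells (1.75 ± 0.0393, adjusted p = 4.2e-06), followed by GLE1 (1.43 ± 0.0883) and DBP5 (1.36 ± 0.114).

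CNOT10, the partner of CNOT11, was lower in GLE1-depleted cells, in which CNOT11 was higher. Its levels were 11.87, 11.98 and 11.94 on the control arrays, 11.91, 12.07 and 12.08 with DBP5 siRNA, 11.23, 11.32 and 11.23 with GLE1 siRNA and 11.90, 11.99 and 11.97 with IPPK siRNA. The GLE1 arrays lay below all others, at 0.628 ± 0.0221 of control (adjusted p = 3.1e-06), while the DBP5 and IPPK arrays overlapped control with folds of 1.06 ± 0.07 and 1.01 ± 0.0312. CNOT10 also differed directly between GLE1 and DBP5 knock-down, by a log2 difference of -0.76 (95% CI -0.89 to -0.63), and between GLE1 and IPPK knock-down, by -0.69 (95% CI -0.82 to -0.56).

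CNOT8, a CAF1-type deadenylase, was at 9.53, 9.68 and 9.61 on the control arrays, 9.23, 9.26 and 9.18 with DBP5 siRNA, 8.92, 9.08 and 9.0 with GLE1 siRNA and 9.10, 9.25 and 9.24 with IPPK siRNA. It was below control on all 9 knock-down arrays, with folds of 0.765 ± 0.0221, 0.657 ± 0.0362 and 0.754 ± 0.0437 (adjusted p = 4.4e-04, 1.1e-05 and 2.9e-04). Its paralog CNOT7 went the other way, at 1.27 ± 0.0282 in DBP5-depleted cells and 1.49 ± 0.131 in IPPK-depleted cells (adjusted p = 0.00292 and 9.3e-05), and did not pass the test in GLE1-depleted cells (1.06 ± 0.0777). CNOT6L, a CCR4-type deadenylase and the paralog of CNOT6, was at 8.18, 8.14 and 8.20 on the control arrays, 8.81, 8.75 and 8.73 with DBP5 siRNA, 8.84, 8.65 and 8.77 with GLE1 siRNA and 8.32, 7.78 and 8.20 with IPPK siRNA. DBP5 and GLE1 knock-down gave folds of 1.51 ± 0.0401 and 1.5 ± 0.102 with no overlap with control (adjusted p = 0.00148 and 0.0013), and the IPPK arrays overlapped control.

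The other CCR4-NOT members moved by less than 1.5-fold. CNOT9, which binds recruiting proteins, fell in every knock-down, to 0.764, 0.718 and 0.723 of control. CNOT1, the scaffold, was higher in IPPK-depleted cells (1.44 ± 0.0285, adjusted p = 8.6e-04) and did not pass the test in DBP5-depleted cells (1.16 ± 0.124, adjusted p = 0.0882). There it passed with the replicate number as a block (0.031), with normexp background correction (0.0375), without control array 3 (0.0203) and without DBP5 array 1 (0.032). CNOT4, a ubiquitin ligase that associates with the complex, was at 1.17 after GLE1 and 1.23 in IPPK-depleted cells, both called higher. CNOT3, of the NOT module, was higher in DBP5-depleted cells (1.19 ± 0.0902, adjusted p = 0.00789) and lower in GLE1-depleted cells (0.863 ± 0.0387, adjusted p = 0.0161), and the direct contrast of GLE1 with DBP5 knock-down was -0.46 (95% CI -0.61 to -0.32) on the log2 scale. The call in GLE1-depleted cells was lost without control array 1 (adjusted p = 0.0614), GLE1 array 2 (0.0585) or GLE1 array 3 (0.0518), and with normexp background correction (0.0625) or the processed values of the authors (0.159).

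For 3 of these genes, the value depended on which probe was read. The brightest CNOT4 probe and the dimmest, both designed on NM_013316, were near control in DBP5-depleted cells (1.03 and 1.01), while a probe designed on the isoform accession NM_001190848 read 3.88 ± 0.197, 4.43 ± 0.489 and 3.48 ± 0.282 with DBP5, GLE1 and IPPK siRNA, and a probe on NM_001008225 read 1.9 ± 0.102, 1.53 ± 0.134 and 1.7 ± 0.234. The second CNOT7 probe, on NM_013354, read 1.96 ± 0.0867, 2.37 ± 0.0831 and 2.72 ± 0.0429, against 1.27, 1.06 and 1.49 for the brightest probe on NM_054026. The CNOT6L probes are both named by the accession NM_001286790 and yet disagreed: the dimmer read 1.09 ± 0.0545 after DBP5, 0.752 ± 0.0173 after GLE1 and 0.406 ± 0.015 in IPPK-depleted cells, so that the direction for CNOT6L in GLE1-depleted cells turned with the probe (adjusted p = 4.9e-05 for the dimmer). The mean of both probes was not called there (log2 difference 0.09, adjusted p = 0.336). Calls were also gained with the mean of the probes. CNOT6L was then lower in IPPK-depleted cells (-0.69, 1.6e-05), CNOT4 higher in DBP5-depleted cells (0.73, 3.3e-06) and CNOT7 higher in GLE1-depleted cells (0.67, 1.0e-06). All of these probes were well above background on all 12 arrays.

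**Figure D2:**
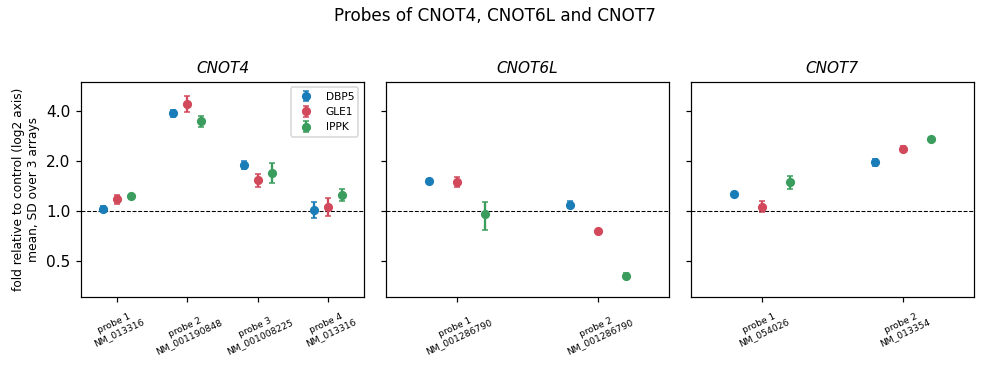
Fold relative to control (log2 axis, mean with SD over 3 arrays) of each probe of CNOT4, CNOT6L and CNOT7, in order of brightness, with the accession that names the probe; colours are the knock-downs and the dashed line is control. The CNOT4 probe on NM_001190848 lies between 3.48 and 4.43 while the probes on NM_013316 lie near 1, and the CNOT6L probes lie on opposite sides of control in GLE1-depleted cells.

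TOB1 and TOB2, antiproliferative proteins that link the CAF1 deadenylases to poly(A)-binding protein, were both higher in GLE1-depleted cells. TOB1 levels were 10.36, 10.37 and 10.31 on the control arrays, 11.31, 11.03 and 10.91 with DBP5 siRNA, 11.70, 11.61 and 11.70 with GLE1 siRNA and 10.53, 10.51 and 10.34 with IPPK siRNA. The GLE1 arrays were the highest, at 2.5 ± 0.095 (adjusted p = 5.4e-07), the DBP5 arrays followed at 1.66 ± 0.241 (adjusted p = 6.9e-05), and the IPPK arrays overlapped control. TOB1 differed between GLE1 and DBP5 knock-down by 0.59 (95% CI 0.38 to 0.80) and between GLE1 and IPPK knock-down by 1.21 (95% CI 1.00 to 1.42) on the log2 scale. TOB2 was at 1.28 ± 0.0866 in GLE1-depleted cells (adjusted p = 8.4e-04) and did not pass the test in the others.

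PAN and PARN transcripts were called in 1 direction only, lower. Of 3, these were 2 in DBP5-depleted, 3 in GLE1-depleted and 3 in IPPK-depleted cells, against 27.5%, 31.5% and 28% of all genes. PAN3, the adaptor of the PAN2 deadenylase, was at 8.95, 8.98 and 8.80 on the control arrays, 8.23, 8.29 and 8.05 with DBP5 siRNA, 8.45, 8.54 and 8.50 with GLE1 siRNA and 8.64, 8.74 and 8.75 with IPPK siRNA. With this probe, the brighter of 2, every knock-down array lay below control, furthest in DBP5-depleted cells (0.606 ± 0.052, adjusted p = 1.4e-05), then GLE1 (0.75 ± 0.0255, adjusted p = 5.9e-04) and IPPK (0.87 ± 0.0361, adjusted p = 0.0407). PAN2, the catalytic subunit, had folds of 0.801 ± 0.0867, 0.738 ± 0.0247 and 0.852 ± 0.0345 in the same order, all called lower. PARN, a poly(A)-specific ribonuclease, was at 0.7 ± 0.0644 after GLE1 and 0.705 ± 0.0528 in IPPK-depleted cells, and at 0.98 ± 0.0263 in DBP5-depleted cells, where it overlapped control. After IPPK knock-down the call for PAN3 was lost without any 1 of 7 arrays (control 1 and 2, GLE1 2 and 3, IPPK 1, 2 and 3), with adjusted p up to 0.128. That for PAN2 was lost without any 1 of 4 (control 2 and 3, IPPK 1 and 2), with adjusted p up to 0.089. Both calls were also lost with normexp background correction (adjusted p = 0.201 for PAN3 and 0.0586 for PAN2) and in the processed values of the authors (0.304 and 0.0698). That for PAN3 was lost with the mean of its probes (0.477) and without the filter on dim probes (0.0595). A dimmer second PAN3 probe, well above background on 9 arrays, gave another order, with 0.571 ± 0.189 in GLE1-depleted cells (adjusted p = 0.0189) and 0.733 ± 0.133 in DBP5-depleted cells (0.176). The GLE1 against DBP5 contrast of PAN3 went from a log2 difference of 0.31 (adjusted p = 0.00506) to -0.03 (0.897) with the mean of both probes.

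Decapping and 5′ decay factors ranged from a log2 difference of -1.78 to 1.82. Of 9, 2 were lower and 4 higher in DBP5-depleted cells, 4 lower and 3 higher in GLE1-depleted cells, and 4 lower and 4 higher in IPPK-depleted cells. The shares of all genes were 27.5% and 26.7% for DBP5, 31.5% and 30.6% for GLE1, and 28% and 27.3% for IPPK. DCP2, the enzyme that cleaves the cap, was at 11.36, 11.32 and 11.32 on the control arrays, 9.70, 9.61 and 9.54 with DBP5 siRNA, 9.76, 9.68 and 9.66 with GLE1 siRNA and 10.82, 10.93 and 10.95 with IPPK siRNA. It was below control on all 9 knock-down arrays, with folds of 0.305 ± 0.0171 after DBP5, 0.323 ± 0.0122 after GLE1 and 0.739 ± 0.0361 in IPPK-depleted cells (adjusted p = 7.5e-09, 3.6e-09 and 8.3e-05). The loss was larger after GLE1 than in IPPK-depleted cells by -1.19 (95% CI -1.32 to -1.07) on the log2 scale, while GLE1 and DBP5 knock-down differed by 0.08 (95% CI -0.04 to 0.21), an interval that holds 0.

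DCP1A, the cofactor of DCP2, fell most in IPPK-depleted cells. Its levels were 13.79, 13.96 and 13.77 on the control arrays, 13.12, 12.93 and 13.05 with DBP5 siRNA, 13.54, 13.58 and 13.51 with GLE1 siRNA and 12, 12.07 and 12.12 with IPPK siRNA. The IPPK arrays lay far below the others, at 0.292 ± 0.0118 of control (adjusted p = 1.1e-08), followed by DBP5 (0.572 ± 0.0368, adjusted p = 3.1e-06) and GLE1 (0.814 ± 0.0199, adjusted p = 0.0028), with no overlap with control in any. A second DCP1A probe, designed on NM_001290205, gave the same order, with folds of 0.24 ± 0.00183, 0.453 ± 0.0088 and 0.752 ± 0.0331. The paralog DCP1B was higher after DBP5 and IPPK knock-down (1.49 ± 0.148 and 1.34 ± 0.0383, adjusted p = 2.5e-04 and 0.0019) and overlapped control in GLE1-depleted cells (1.1 ± 0.0383).

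PATL1, which bridges the LSM1-7 ring and the decapping enzyme, was at 9.89, 9.90 and 9.30 on the control arrays, 11.43, 11.70 and 11.41 with DBP5 siRNA, 11.13, 11.20 and 11.35 with GLE1 siRNA and 11.17, 10.84 and 10.97 with IPPK siRNA. Although control array 3 read lower than the other control arrays, all 9 knock-down arrays were above all of them, with folds of 3.53 ± 0.418, 2.89 ± 0.235 and 2.46 ± 0.286 (adjusted p = 5.0e-06, 1.2e-05 and 5.8e-05). EDC4, the scaffold that joins DCP1 and DCP2, was at 13.71, 13.67 and 13.71 on the control arrays, 13.50, 13.65 and 13.65 with DBP5 siRNA, 13.06, 13.00 and 13.03 with GLE1 siRNA and 13.29, 13.26 and 13.27 with IPPK siRNA. It was lower after GLE1 (0.63 ± 0.0135, adjusted p = 8.1e-07) and IPPK knock-down (0.746 ± 0.00702, adjusted p = 3.8e-05) and did not pass the test in DBP5-depleted cells (0.933 ± 0.055). LSM14A, a repressor of translation found in P-bodies, was at 13.02, 13.03 and 13.07 on the control arrays, 13.08, 13.03 and 13.12 with DBP5 siRNA, 12.51, 12.40 and 12.38 with GLE1 siRNA and 12.04, 12.06 and 11.98 with IPPK siRNA. The DBP5 arrays overlapped control, while the GLE1 arrays were at 0.653 ± 0.0322 (adjusted p = 1.4e-06) and the IPPK arrays at 0.494 ± 0.0131 (adjusted p = 5.8e-08). EDC3, an enhancer of decapping, passed the test in no comparison with control, and its fold in IPPK-depleted cells was 0.808 ± 0.038 (adjusted p = 0.0713, and 0.0469 with the replicate block).

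The 5′ exonucleases were higher in all 3 knock-downs. XRN1, which degrades decapped mRNA in the cytoplasm, was at 7.02, 7.23 and 6.90 on the control arrays, 7.56, 7.39 and 7.43 with DBP5 siRNA, 8.34, 8.30 and 8.26 with GLE1 siRNA and 7.76, 7.70 and 7.75 with IPPK siRNA. No knock-down array overlapped control, and the fold was 2.38 ± 0.0712 after GLE1, 1.61 ± 0.0346 after IPPK and 1.33 ± 0.082 in DBP5-depleted cells (adjusted p = 2.3e-07, 3.3e-05 and 0.00123). XRN2, the nuclear paralog that acts in transcription termination, was at 9.86, 9.73 and 9.77 on the control arrays, 10.97, 11.18 and 10.86 with DBP5 siRNA, 10.50, 10.49 and 10.53 with GLE1 siRNA and 10.78, 10.89 and 10.83 with IPPK siRNA. Here the order was the reverse, with 2.32 ± 0.266 after DBP5, 2.06 ± 0.0809 after IPPK and 1.65 ± 0.0209 in GLE1-depleted cells (adjusted p = 4.1e-07, 1.1e-06 and 1.3e-05). GLE1 and DBP5 knock-down differed by 0.84 (95% CI 0.66 to 1.02) for XRN1 and by -0.50 (95% CI -0.67 to -0.32) for XRN2 on the log2 scale, while the DBP5 and IPPK values for XRN2 differed by 0.17 (95% CI -0.00 to 0.34) and did not pass the test (adjusted p = 0.0928).

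The promoter sequences of DCP1A, DCP2 and PATL1, the decapping members with the largest changes, are shown to place these genes in the genome and to show their base composition. Each run is the 250 bases before the start of the gene in RefSeq (GRCh38.p14), read 5′ to 3′ on the strand of the gene. Capitals mark matches, on either strand, to 5 short motifs: the CCAAT box, the GC box GGGCGG, the ETS core CCGGAA, the TATA box TATAAA and the cAMP response element TGACGTCA.
DCP1A (chr3:53347544-53347793, minus strand): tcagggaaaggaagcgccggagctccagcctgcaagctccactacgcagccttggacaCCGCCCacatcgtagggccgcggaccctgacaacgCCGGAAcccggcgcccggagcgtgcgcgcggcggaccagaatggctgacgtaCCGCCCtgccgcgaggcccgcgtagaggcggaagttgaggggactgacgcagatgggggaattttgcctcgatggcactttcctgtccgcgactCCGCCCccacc
DCP2 (chr5:112976548-112976797, plus strand): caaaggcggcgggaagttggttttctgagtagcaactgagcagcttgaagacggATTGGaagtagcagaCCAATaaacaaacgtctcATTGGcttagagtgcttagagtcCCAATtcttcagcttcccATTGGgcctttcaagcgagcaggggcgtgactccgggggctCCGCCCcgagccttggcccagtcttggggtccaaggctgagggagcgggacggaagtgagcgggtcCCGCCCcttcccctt
PATL1 (chr11:59669038-59669287, minus strand): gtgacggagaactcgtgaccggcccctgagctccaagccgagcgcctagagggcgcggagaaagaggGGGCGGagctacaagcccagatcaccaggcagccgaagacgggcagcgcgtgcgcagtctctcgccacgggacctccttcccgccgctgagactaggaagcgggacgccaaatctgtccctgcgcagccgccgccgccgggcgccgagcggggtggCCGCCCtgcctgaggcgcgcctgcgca
DCP2 holds 5 matches to the CCAAT box and 2 to the GC box, DCP1A holds 3 to the GC box and 1 to the ETS core, and PATL1 holds 2 to the GC box. Of 35116 promoters in the table, 32% hold the CCAAT box, 42.6% the GC box, 14.5% the ETS core, 10.7% the TATA box and 1.65% the cAMP response element at least 1 time in this window. Of the 36 decay factors with an entry, these were 14, 30, 13, 0 and 2 in the same order. The GC content was 68.4% for DCP1A, 58.4% for DCP2 and 72% for PATL1, against a median of 58% over all promoters. A match describes the letters only, and the array data do not measure these sites.

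LSM ring transcripts did not move together. Of 7, 3 were lower and 1 higher in DBP5-depleted cells, 5 lower and 1 higher in GLE1-depleted cells, and 0 lower and 1 higher in IPPK-depleted cells, where the 6 others did not pass the test. Of all genes, 27.5% and 26.7% were lower and higher with DBP5 siRNA, 31.5% and 30.6% with GLE1 siRNA and 28% and 27.3% with IPPK siRNA. LSM1 is the subunit that sets the cytoplasmic ring apart, since LSM2 to LSM7 also form the nuclear ring with LSM8. LSM1 was at 13.66, 13.66 and 13.64 on the control arrays, 14.91, 14.95 and 15 with DBP5 siRNA, 15.20, 15.23 and 15.23 with GLE1 siRNA and 14.54, 14.68 and 14.70 with IPPK siRNA. It was the higher member each time, above control on all 9 arrays, with folds of 2.46 ± 0.0777, 2.96 ± 0.0294 and 1.98 ± 0.116 (adjusted p = 1.8e-08, 2.3e-09 and 8.3e-08).

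LSM6 was at 13.77, 13.81 and 13.56 on the control arrays, 13.27, 13.03 and 12.92 with DBP5 siRNA, 11.60, 11.53 and 11.48 with GLE1 siRNA and 13.81, 13.62 and 13.60 with IPPK siRNA. After GLE1 knock-down it was at 0.221 ± 0.00926 of control (adjusted p = 2.3e-08) and in DBP5-depleted cells at 0.639 ± 0.081 (adjusted p = 2.9e-04), while the IPPK arrays overlapped control (0.971 ± 0.0796). The direct contrasts were -1.53 (95% CI -1.76 to -1.31) for GLE1 against DBP5 and -2.14 (95% CI -2.36 to -1.91) for GLE1 against IPPK knock-down. LSM3 was at 15.32, 15.35 and 15.44 on the control arrays, 15.31, 15.28 and 15.16 with DBP5 siRNA, 14.59, 14.50 and 14.48 with GLE1 siRNA and 15.49, 15.44 and 15.47 with IPPK siRNA. It was lower in GLE1-depleted cells (0.557 ± 0.0225, adjusted p = 3.0e-07). The DBP5 arrays lay just below control without overlap (0.919 ± 0.0499, adjusted p = 0.0927), and there LSM3 was called lower with 75th percentile scaling (0.0212), normexp (0.0373) and the processed values of the authors (0.0155). GLE1 knock-down differed from DBP5 knock-down by -0.72 (95% CI -0.85 to -0.60) on the log2 scale.

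LSM5 and LSM7 were lower after DBP5 (0.761 and 0.908 of control) and GLE1 knock-down (0.72 and 0.871), and LSM2 in GLE1-depleted cells (0.875). LSM4 did not pass the test in any of the 3 comparisons with control, with folds of 0.937 ± 0.136, 0.893 ± 0.0132 and 1 ± 0.24, although it passed after GLE1 in a fit of the 6 arrays compared alone (adjusted p = 0.0373). The LSM7 call in DBP5-depleted cells was lost without control array 1 (adjusted p = 0.0641), control array 3 (0.0639) or DBP5 array 1 (0.0606) and in a fit of the 6 arrays compared (0.0822). The LSM2 call was lost without control array 1 (0.0539), GLE1 array 2 (0.0614) or GLE1 array 3 (0.0608).

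**Figure D3:**
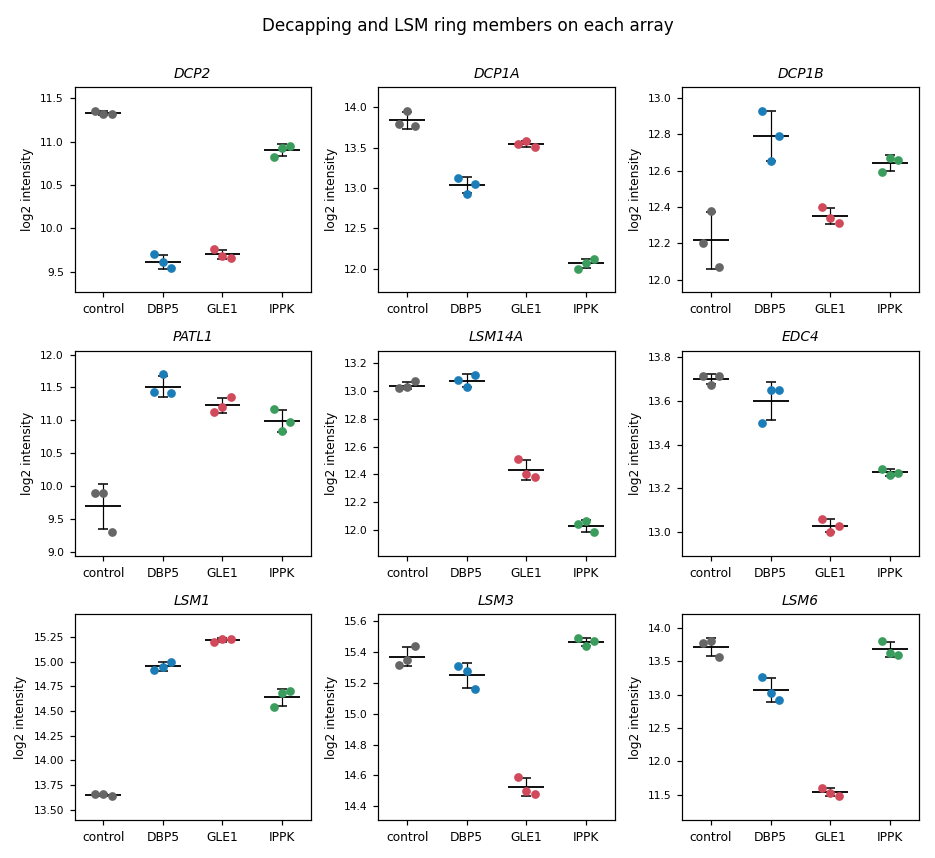
Log2 intensity (vertical axes, each with its own range) of 9 decapping and LSM ring members on each array; points are arrays, horizontal bars are group means and error bars the SD over 3 arrays. DCP2 is lowest after DBP5 and GLE1 knock-down, DCP1A and LSM14A in IPPK-depleted cells, and LSM3, LSM6 and EDC4 in GLE1-depleted cells, while PATL1 and LSM1 lie above control in all 3 knock-downs.

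Of 9 NMD factors, 5 were lower and 3 higher in GLE1-depleted cells (31.5% and 30.6% of all genes). After DBP5 knock-down 4 were lower and 2 higher (27.5% and 26.7% of all genes), and in IPPK-depleted cells 3 lower and 2 higher (28% and 27.3%). UPF3B, which joins the exon junction complex to UPF2, was at 9.82, 10.05 and 9.87 on the control arrays, 9.65, 9.55 and 9.54 with DBP5 siRNA, 7.10, 6.96 and 6.74 with GLE1 siRNA and 9.28, 9.50 and 9.50 with IPPK siRNA. The GLE1 arrays lay far below the others, at 0.126 ± 0.0157 of control (adjusted p = 3.2e-09), the largest fall of any member. DBP5 and IPPK knock-down gave 0.792 ± 0.0356 and 0.712 ± 0.0623 (adjusted p = 0.0174 and 0.00205), also without overlap with control. The GLE1 change was a log2 difference of -2.98 here, -2.31 after normexp background correction and -2.29 in the processed values of the authors, both of which rest on the median spot signal in place of the processed intensity. The 3 GLE1 arrays were well above background for UPF3B. The DBP5 call was lost without control array 2 (adjusted p = 0.0696), DBP5 array 2 (0.0505) or DBP5 array 3 (0.0528).

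UPF3A, the paralog of UPF3B, was at 10.29, 10.36 and 10.48 on the control arrays, 10.06, 10.25 and 10.42 with DBP5 siRNA, 8.87, 9.03 and 9.04 with GLE1 siRNA and 9.76, 9.98 and 9.95 with IPPK siRNA. It was lower after GLE1 (0.38 ± 0.0251, adjusted p = 5.9e-07) and IPPK knock-down (0.716 ± 0.0583, adjusted p = 0.00203), and the DBP5 arrays overlapped control. GLE1 knock-down thus had the lowest values of both UPF3 genes, with direct contrasts against DBP5 knock-down of -1.26 (95% CI -1.49 to -1.04) for UPF3A and -2.65 (95% CI -2.87 to -2.42) for UPF3B. The promoter of UPF3B, the member with the largest fall, is shown in the same way as those of the decapping genes.
UPF3B (chrX:119852964-119853213, minus strand): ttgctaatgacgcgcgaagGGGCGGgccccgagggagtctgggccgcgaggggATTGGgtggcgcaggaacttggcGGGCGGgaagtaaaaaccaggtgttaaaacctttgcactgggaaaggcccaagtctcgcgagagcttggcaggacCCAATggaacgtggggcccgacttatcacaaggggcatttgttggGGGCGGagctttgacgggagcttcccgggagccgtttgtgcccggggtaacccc
This window holds 2 matches to the CCAAT box and 3 to the GC box, and its GC content was 62.8%.

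UPF1, the central helicase of NMD, changed little. It was at 1.18 ± 0.0925 in GLE1-depleted cells (adjusted p = 0.0461), a call that was lost without any 1 of 6 arrays (control 1 and 3, GLE1 1 and 3, IPPK 2 and 3), with adjusted p up to 0.162, and with 75th percentile scaling (0.0811), normexp (0.0511) or no filter on dim probes (0.0685). Its folds after DBP5 and IPPK knock-down were 0.972 ± 0.115 and 1.01 ± 0.0591. UPF2, the bridge between UPF1 and UPF3, was lower after DBP5 (0.755 ± 0.108, adjusted p = 0.00473) and GLE1 knock-down (0.808 ± 0.038, adjusted p = 0.0181), the latter call being lost without control array 3 (0.067) or GLE1 array 1 (0.0637) and with the mean of its probes (0.128).

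SMG1, the kinase of UPF1, was lower in DBP5-depleted cells (0.737 ± 0.0367, adjusted p = 5.4e-05) and higher in IPPK-depleted cells (1.16 ± 0.0471, adjusted p = 0.00696), and these knock-downs differed by -0.65 (95% CI -0.77 to -0.53) on the log2 scale. SMG1 has near-identical copies elsewhere in the genome that its 6 probes may not tell apart, so its values are uncertain, and the IPPK call was lost in the mean of its probes (adjusted p = 0.117). SMG9, a partner of SMG1, was at 10.49, 10.51 and 10.57 on the control arrays, 10.20, 10.51 and 10.46 with DBP5 siRNA, 10.16, 10.08 and 10.08 with GLE1 siRNA and 9.82, 9.97 and 9.96 with IPPK siRNA. It was lower after IPPK (0.656 ± 0.0374, adjusted p = 9.1e-05) and GLE1 knock-down (0.75 ± 0.0249, adjusted p = 0.00107) and overlapped control in DBP5-depleted cells. SMG8, the other partner, was higher in all 3 knock-downs (1.28, 1.17 and 1.25 of control).

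SMG5, which binds phosphorylated UPF1 and leads to decay, was at 13.35, 13.28 and 13.43 on the control arrays, 12.89, 13.07 and 13.25 with DBP5 siRNA, 12.63, 12.57 and 12.66 with GLE1 siRNA and 13.34, 13.38 and 13.39 with IPPK siRNA. It was lowest in GLE1-depleted cells (0.602 ± 0.0207, adjusted p = 1.9e-05), and lower in DBP5-depleted cells (0.824 ± 0.104, adjusted p = 0.0148), a call lost without control array 3 (0.0554) and in a fit of the 6 arrays compared (0.0644), while the IPPK arrays overlapped control. SMG6, the endonuclease of NMD, moved the opposite way. Its levels were 9.24, 9.30 and 9.49 on the control arrays, 9.66, 9.90 and 10.07 with DBP5 siRNA, 10.04, 9.97 and 9.92 with GLE1 siRNA and 9.47, 9.48 and 9.51 with IPPK siRNA. It was higher after DBP5 (1.45 ± 0.2, adjusted p = 8.4e-04) and GLE1 knock-down (1.55 ± 0.0627, adjusted p = 2.0e-04), without overlap with control, and the IPPK arrays overlapped control.

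ZFP36 family members differed in direction. ZFP36 (tristetraprolin) was at 11.18, 11.07 and 11.19 on the control arrays, 10.30, 10.53 and 10.41 with DBP5 siRNA, 10.20, 10.25 and 10.16 with GLE1 siRNA and 10.68, 10.70 and 10.64 with IPPK siRNA. It was below control on all 9 knock-down arrays, with folds of 0.602 ± 0.0491, 0.519 ± 0.0158 and 0.721 ± 0.0149 (adjusted p = 4.4e-06, 3.8e-07 and 1.1e-04). ZFP36L1 was higher in all 3, by 1.22 ± 0.0558, 1.24 ± 0.0222 and 1.24 ± 0.0357 (adjusted p = 0.0165, 0.00976 and 0.0115), though the DBP5 call was lost without DBP5 array 3 (0.0569) and, in fits of the 6 arrays compared, so were the DBP5 (0.0701) and IPPK calls (0.052). ZFP36L2 was higher in GLE1-depleted cells (1.4 ± 0.103, adjusted p = 0.0121) and read 1.28 ± 0.169 in DBP5-depleted cells (adjusted p = 0.0553, and 0.0348 with the replicate block). Its control arrays spread from 10.55 to 11.16, more than those of ZFP36.

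**Figure D4:**
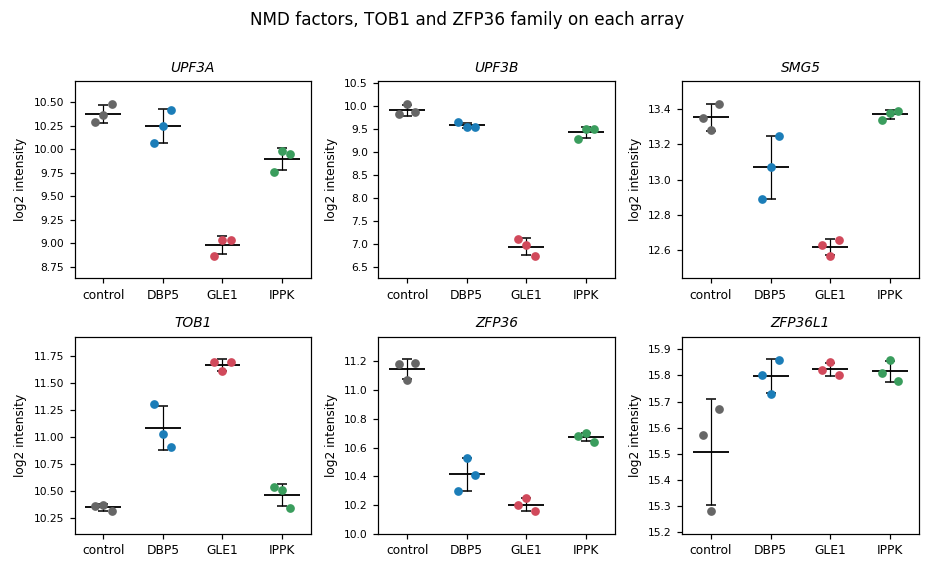
Log2 intensity (vertical axes, each with its own range) of UPF3A, UPF3B, SMG5, TOB1, ZFP36 and ZFP36L1 on each array; points are arrays, horizontal bars are group means and error bars the SD over 3 arrays. UPF3A, UPF3B and SMG5 are lowest and TOB1 highest in GLE1-depleted cells, and ZFP36 is below and ZFP36L1 above control in all 3 knock-downs.

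The knock-downs were also compared directly with each other, in the fit over all 12 arrays, whose control arrays enter the estimate of the spread but not the differences. GLE1 and DBP5 knock-down differed in 28 of the 43 factors (65.1%), against 54.6% of all genes tested, and GLE1 was the lower in 19 and the higher in 9 of them (28% and 26.5% of all genes). GLE1 and IPPK knock-down differed in 32 (74.4%), against 60.2% of all genes, with GLE1 lower in 23 and higher in 9 (30.7% and 29.4% of all genes). DBP5 and IPPK knock-down differed in 27 (62.8%), against 48.9% of all genes, with DBP5 lower in 14 and higher in 13 (25.1% and 23.8% of all genes).

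For GLE1 against IPPK knock-down, 7 of 10 CCR4-NOT members, 5 of 7 LSM members and 4 of 9 NMD members were lower in GLE1-depleted cells, and 1 in each group was higher, against 30.7% of all genes lower and 29.4% higher. These shares were not tested against those of the other groups or of all genes. Among these calls, that for CNOT8 was lost without GLE1 array 1 (limma adjusted p = 0.0771) or 3 (0.0503), or IPPK array 2 (0.0761) or 3 (0.0713). The LSM7 call was lost with normexp (0.0943) and the processed values of the authors (0.284). That for SMG1 was lost with the mean of its probes (0.488). PAN2 and PAN3 were lower after GLE1 than in IPPK-depleted cells as well (adjusted p = 0.0394 and 0.0289), but the PAN2 call was lost without any 1 of 6 arrays (control 3, GLE1 1, 2 and 3, IPPK 1 and 3), with adjusted p up to 0.121. The PAN3 call was lost without any 1 of 4 (GLE1 1 and 3, IPPK 2 and 3), with adjusted p up to 0.0871. The PAN2 call was also lost with normexp background correction (0.0863) and without the filter on dim probes (0.0561). PARN did not differ by more than its interval, at -0.01 (95% CI -0.17 to 0.15). Decapping members went both ways, with DCP2 lower by -1.19 (95% CI -1.32 to -1.07) and DCP1A higher by 1.48 (95% CI 1.33 to 1.63) in GLE1-depleted cells. For DBP5 against IPPK knock-down the same 2 genes gave -1.28 (95% CI -1.41 to -1.15) and 0.97 (95% CI 0.82 to 1.12), and LSM14A gave 1.05 (95% CI 0.94 to 1.16). Of the ZFP36 family, ZFP36L1 had nearly the same level in each knock-down, the contrast of GLE1 with DBP5 being 0.02 (95% CI -0.17 to 0.22). The contrasts of GLE1 with IPPK knock-down for UPF1 and SMG9 did not pass the test (adjusted p = 0.0558 and 0.0619) and passed with the replicate block (0.022 and 0.0497) and in some other settings, such as a fit of the 6 arrays compared (0.0466 and 0.0309).

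**Figure D5:**
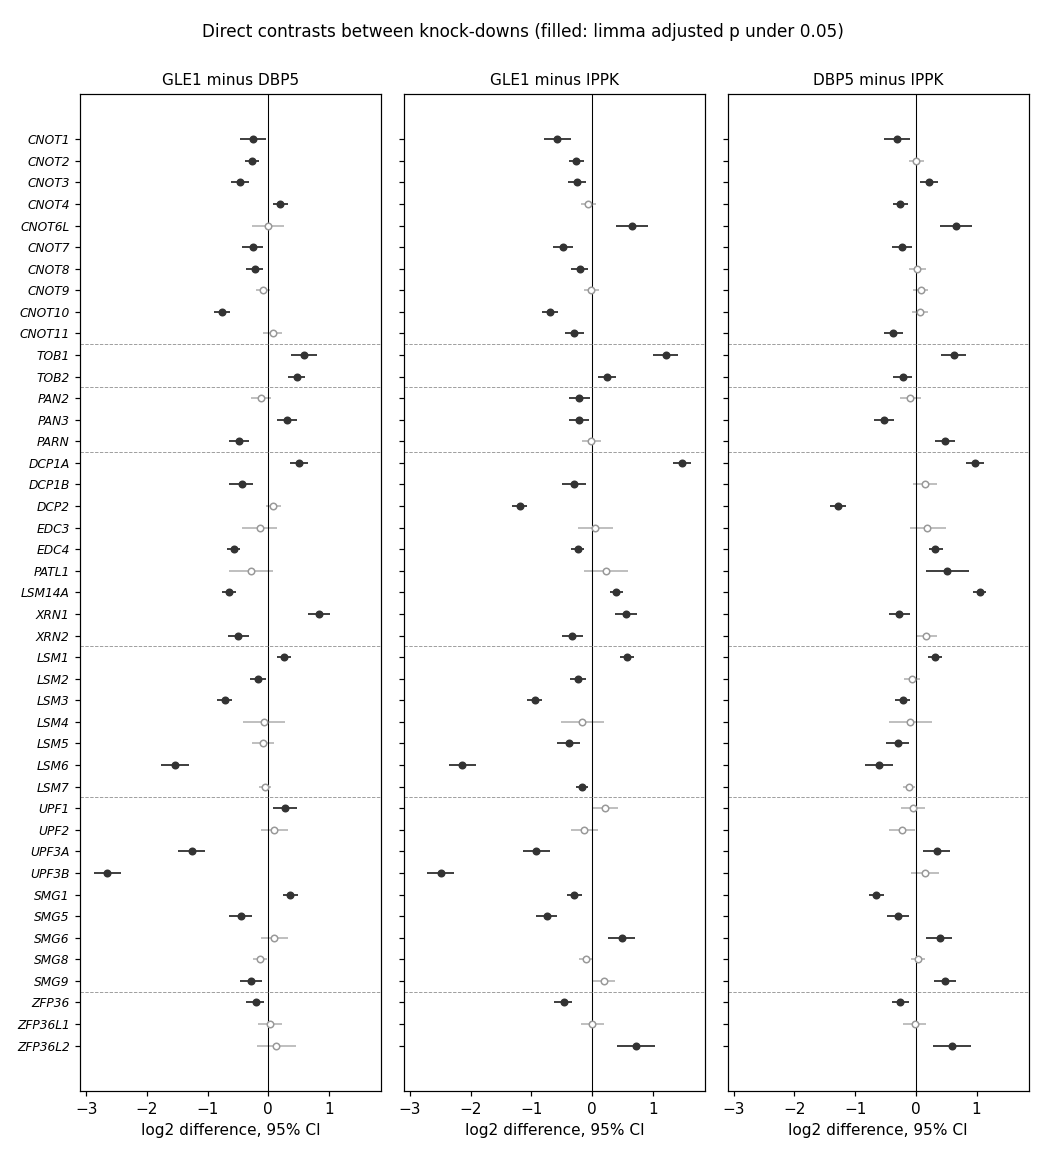
Direct contrasts of the knock-downs for the 43 decay factors, as log2 difference with its 95% confidence interval from limma; filled points passed limma at an adjusted p under 0.05, open points did not, and dashed lines separate the groups. UPF3B and LSM6 lie furthest to the left in both contrasts with GLE1 knock-down, and DCP1A and DCP2 lie on opposite sides in both contrasts with IPPK knock-down.

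Other genes of the same pathways were measured as a list of 54, all well above background on the control arrays. After DBP5 knock-down 17 were lower and 25 higher, in GLE1-depleted cells 17 and 22, and in IPPK-depleted cells 13 and 23. Of all genes tested, 27.5% and 26.7%, 31.5% and 30.6%, and 28% and 27.3% were lower and higher in the same order. The 54 genes had median log2 differences of 0.12, 0.04 and 0.10. Of 12 NMD and exon junction genes, 8, 7 and 7 were lower in the order DBP5, GLE1 and IPPK, and 3, 4 and 3 were higher.

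Of 10 further deadenylation genes, 3 were lower and 5 higher after DBP5, 3 and 4 after GLE1, and 2 and 3 in IPPK-depleted cells, against 27.5% and 26.7%, 31.5% and 30.6%, and 28% and 27.3% of all genes. BTG2, an antiproliferative protein of the TOB family that binds the CAF1 deadenylases, was higher after GLE1 (4.19 ± 0.343, adjusted p = 7.4e-08), IPPK (2.87 ± 0.214, 1.1e-06) and DBP5 knock-down (1.77 ± 0.284, 1.1e-04). NOCT, a member of the CCR4 nuclease family, was at 2.65 ± 0.254 in GLE1-depleted cells (6.4e-08), and PAIP1, which binds poly(A)-binding protein, at 0.408 ± 0.0634 after GLE1 (2.7e-06) and 0.536 ± 0.0134 in IPPK-depleted cells (6.0e-05). Among 12 decapping genes, 3 were lower and 6 higher after DBP5, 3 and 3 after GLE1, and 1 and 7 in IPPK-depleted cells, against the same shares of all genes. Of these, PNRC1 was higher after GLE1 (2.23 ± 0.151, 1.1e-07) and DBP5 knock-down (1.81 ± 0.119, 1.8e-06).

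Of 20 proteins that recruit the decay factors to mRNAs, 11, 11 and 10 were higher and 3, 4 and 3 lower, against 26.7%, 30.6% and 27.3% of all genes higher and 27.5%, 31.5% and 28% lower. The recruiting proteins had median log2 differences of 0.30, 0.30 and 0.24. SAMD4A, a Smaug protein that recruits CCR4-NOT, was higher in all 3 knock-downs (2.25 ± 0.13, 2.68 ± 0.159 and 4.14 ± 0.254, adjusted p = 4.0e-07, 5.0e-08 and 7.8e-09). TNRC6C, a GW182 protein of the microRNA pathway, was at 2.53 ± 0.33 in GLE1-depleted cells (4.3e-07), and its partner AGO4 was at 2.22 ± 0.0626 after DBP5 (4.4e-06) and 1.86 ± 0.22 in IPPK-depleted cells (2.7e-05).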

How the data were processed

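U2OS cells were transfected with 20 nM siRNA and cultured for 48 h, and cytoplasmic RNA was hybridised to 12 one-colour arrays, 3 per siRNA. Groups and replicate numbers came from the sample titles. The deposited scanner files hold a linear processed intensity per spot, with background already removed by Feature Extraction (10.7.3.1 per the file headers), and spot flags for outliers, saturation and signal over background. A further deposited table holds log2 values from the authors, made by LOESS in R according to the methods. Across probes its columns tracked the log2 median spot signal (r of 0.9998 or more) better than the processed intensity (0.961 to 0.967), and their medians lay between 7.7465 and 7.7587. The background setting behind it is not given in the sources used here.

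Control spots and outlier spots (169 to 358 per array) were left out, spots of one probe were averaged, and log2 processed intensities were normalized by cyclic loess. Of 34127 probes, 26449 (77.5%) were named through their accession in RefSeq (GRCh38.p14), used for names and promoter sequences only since the array design is of another build. Probes without a match kept their own identifier as a gene name and stayed in the background of all genes. The brightest probe stood for a gene, and 20821 of 27522 gene names were kept, those well above background (in at least 0.5 of the spots of a probe) on the 3 arrays of any 1 siRNA, and 18420 passed this on all 12. Contrasts were fitted over all 12 arrays with limma 3.58.1 in R 4.3.3 (two-sided, Benjamini-Hochberg over all genes kept, threshold 0.05, intervals of 95%). Figures and tables were made with matplotlib 3.10.9, pandas 2.3.3 and numpy 2.4.6 in Python 3.11.15. On simulated data with 20821 genes, 200 of them changed, the tested fit recovered 82 of 100 genes changed 2-fold and 63 of 100 changed 1.5-fold for DBP5 (GLE1 87 and 59, IPPK 80 and 68). False calls numbered 6, 3 and 8. On the arrays 54.3%, 62% and 55.4% of the genes tested were called against control, in the order DBP5, GLE1 and IPPK. How many genes are recovered or falsely called when so many change was not tested.

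The gene list, its groups, the other lists and the tests were chosen with earlier results of these data known. Members were given with their values on every array where they passed limma and reached 1.5-fold in at least 1 knock-down, others as folds or counts, and other pathway genes where they passed limma and reached 2-fold, apart from what is not reported here. The 18 pairs of arrays with the same replicate number, which share a slide, deviated together (r of 0.318 to 0.513, the 36 other pairs -0.285 to -0.05), so the numbers pair the arrays and a fit with the number as a block was run. Other alternatives were 75th percentile scaling, quantile normalization, normexp with an offset of 50 (on the median signal, as the mean signal was not in the tables), the authors' processed values, a filter on all 12 arrays or none, averaging or separating the probes of a gene, the 6 arrays compared, each array left out, and the paired t-test of the methods. Arrays give no molecule counts, and p-values cover the spread between these arrays. Rank products and pathway software were not used here.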

Additional observations from a re-analysis of the deposited data

How the results depend on the processing

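Under 22 alternatives, the counts of decay factors lower or higher in each knock-down, and different between knock-downs, stayed within 1.5 times their value in all but 1 alternative. The exception was the paired t-test of the methods, which after Benjamini-Hochberg adjustment gave 3 lower (in place of 14) and 6 higher (14) after DBP5 knock-down, 8 higher (15) after GLE1, 5 higher (13) after IPPK, 12 different (28) between GLE1 and DBP5 and 8 different (27) between DBP5 and IPPK knock-down. At an unadjusted p under 0.05 it gave 11 lower and 11 higher after DBP5, 23 and 11 after GLE1, and 12 and 13 after IPPK knock-down. The paired fit with the replicate block gave 14 lower and 16 higher after DBP5, 22 and 15 after GLE1, and 14 and 13 after IPPK knock-down, and it changed no call against control other than those of CNOT1, ZFP36L2 and EDC3. With each array left out in turn, the counts were 12 to 14 lower and 13 to 17 higher for DBP5, 20 to 23 and 14 to 15 for GLE1, and 11 to 14 and 13 for IPPK, and 81 of 91 calls against control were kept. Of the 37 changes of at least 1.5-fold, 810 recomputed values kept their direction and call, 10 kept the direction but not the call (8 in the paired t-test, and CNOT6L and PAN3 after DBP5 knock-down with their second probe) and 0 reversed. The 8 in the paired t-test were TOB1, DCP1A, LSM6 and ZFP36 after DBP5, PATL1 and SMG6 after GLE1, and PATL1 and XRN1 after IPPK knock-down. CNOT6L after GLE1 knock-down, just under 1.5-fold and so not among the 37, reversed with its second probe (0.752 of control). The log2 difference of UPF3B after GLE1 knock-down was -2.98 here, -2.31 with normexp and -2.29 in the processed values of the authors, both of which also start from the median spot signal, and the cause was not tested.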

Other observations

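Transcripts that these decay routes are known to act on were read as short lists, given as values only. Of 9 mRNAs with AU-rich elements, 9 were lower in DBP5-depleted cells, 8 lower and 0 higher in IPPK-depleted cells, and 5 lower and 3 higher in GLE1-depleted cells, with median log2 differences of -2.04, -1.18 and -0.28. Of all genes tested, 27.5% were lower in DBP5-depleted cells, 28% lower and 27.3% higher in IPPK-depleted cells, and 31.5% lower and 30.6% higher in GLE1-depleted cells. PTGS2, which is counted as lower in each, was well above background on only 7 of the 12 arrays. TNF was well above background on 11 of the 12 arrays, and on 2 of the 3 with IPPK siRNA. The inflammatory mediators TNF, CSF2 and CXCL8 were at 0.18 ± 0.00263, 0.099 ± 0.0106 and 0.111 ± 0.00404 of control in DBP5-depleted cells (mean ± SD, n = 3 arrays, limma adjusted p = 7.5e-09, 3.8e-09 and 1.5e-09), while in GLE1-depleted cells they were at 0.642 ± 0.0177, 0.826 ± 0.102 and 1.05 ± 0.117, the last of which did not pass the test (0.428). IL6, also a cytokine, was at 0.243 ± 0.0216 in DBP5-depleted and 0.315 ± 0.00585 in IPPK-depleted cells. It was higher in GLE1-depleted cells (1.43 ± 0.143, adjusted p = 5.9e-04). MYC and CCND1 were likewise higher in GLE1-depleted cells (1.53 ± 0.0593 and 1.56 ± 0.0524, adjusted p = 4.5e-06 and 1.6e-05).

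Of 6 transcripts known to be sensitive to NMD, 4 were lower and 1 higher in DBP5-depleted cells, 2 lower and 3 higher in GLE1-depleted cells, and 2 lower and 1 higher in IPPK-depleted cells, against 27.5% and 26.7%, 31.5% and 30.6%, and 28% and 27.3% of all genes. GADD45A was the member higher in each, at 1.49 ± 0.046, 2.22 ± 0.164 and 1.48 ± 0.0349 of control (limma adjusted p = 1.2e-05, 3.8e-08 and 1.2e-05). GAS5, a noncoding RNA that hosts small nucleolar RNAs, was lower after DBP5 (0.753 ± 0.0256, 3.5e-04) and IPPK knock-down (0.768 ± 0.0664, 5.6e-04) and higher in GLE1-depleted cells (1.51 ± 0.0224, 1.6e-05). ATF4 was at 0.487 ± 0.0317 after DBP5 (2.4e-07) and 0.734 ± 0.0402 in GLE1-depleted cells (8.1e-05) and at 1.02 ± 0.0289 in IPPK-depleted cells (0.704). These lists were small and their members respond to other pathways too, and whether the decay factors had a part in these values was not tested.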
